A study of Arabidopsis thaliana with 24 samples.

Results

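The Argonaute gene family of Arabidopsis thaliana was examined in wild-type (WT) seedlings and in seedlings carrying prmt5-5, a mutant allele of the arginine methyltransferase gene PRMT5. The family was taken as AGO1 to AGO10 by locus identifier, which gave 10 of the 33602 genes in the count tables. Polyadenylated RNA from whole seedlings was sequenced in 24 libraries, 3 in each of 8 groups. WT and prmt5-5 were each present in the accession Columbia (Col), in the accession Landsberg erecta (Ler), and in the F1 hybrids labelled Col x Ler and Ler x Col. The mutant allele came from Col-0 and was crossed back to Ler for 7 generations, and both parents of every mutant F1 carried it. Seedlings of all groups were 9 days old and had grown in continuous light at 22 °C on MS medium after 4 days of cold stratification. The labels do not say that replicates came from separate plantings, so a p-value here reflects no more than the spread among these libraries, which may be technical.

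Argonaute proteins bind small RNAs and use them to find matching transcripts or loci, which are then cleaved, held from translation or methylated. In Arabidopsis AGO1 is the main effector of microRNAs, AGO10 is its closest relative and acts in the shoot meristem, and AGO5 belongs to the same branch. AGO2, AGO3 and AGO7 form a second branch, in which AGO2 acts in defence against viruses and bacteria and AGO7 binds miR390 to start trans-acting siRNA production from TAS3. AGO4, AGO6, AGO8 and AGO9 form the branch of RNA-directed DNA methylation, which is guided by siRNAs. The AGO2 protein is a known substrate of PRMT5, a fact about the protein that RNA counts do not measure.

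Some members are themselves targets of microRNAs, and the pairing is shown for AGO1, AGO2 and AGO3, which carry such sites, and for TAS3, the RNA that AGO7 acts on. Sequences are from RefSeq (TAIR10.1), 5′ to 3′. In the microRNAs the capitals mark the seed, bases 2 to 8.
miR168a-5p: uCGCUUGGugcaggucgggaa
miR403-3p: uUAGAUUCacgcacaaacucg
miR390a-5p: aAGCUCAGgagggauagcgcc
In the transcript sites the capitals mark bases that form a Watson-Crick pair with the microRNA.
AGO1 site for miR168a-5p: TTCCCGAgCTGCAtCAAGCtA
AGO2 site for miR403-3p: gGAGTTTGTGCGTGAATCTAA
AGO3 site for miR403-3p: gatGTTTGTGCGTGAATCTAA
TAS3 first site for miR390a-5p: GGtGtTATCCtatCTGAGCTT
TAS3 second site for miR390a-5p: ttgtCTATCCCTCCTGAGCTa
The AGO1 site lies in the coding sequence on the minus strand (chr1:17891529-17891549) and pairs at 18 of 21 bases. The AGO2 site lies in the 3′ UTR on the plus strand (chr1:11185223-11185243) and pairs at 20 of 21 bases. The AGO3 site also lies in the 3′ UTR on the plus strand (chr1:11192399-11192419) and pairs at 18 of 21 bases, and its unpaired bases lie at the end that faces the 3′ end of miR403. Both TAS3 sites lie on the plus strand (chr3:5862099-5862119 and chr3:5862343-5862363). The search covered the sense strand of transcripts and scored mismatches, with a lower score meaning closer pairing. A score of at most 4 was found in 0.0692% of 27440 genes for miR168a-5p, in 0.131% for miR403-3p and in 0.12% for miR390a-5p. AGO1 scored 2.5 with miR168a-5p, and AGO2 and AGO3 scored 1 and 3 with miR403-3p, whereas no other member had a site scoring 4 or less for these 3 microRNAs. These matches are descriptions of letters and not measured cleavage.

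AGO2 (AT1G31280, chr1:11181504-11185396, plus strand) and AGO3 (AT1G31290, chr1:11188120-11192585, plus strand) are neighbours with 2723 bp between them. AGO1 (AT1G48410, chr1:17885633-17892632, minus strand) and AGO7 (AT1G69440, chr1:26101407-26105328, minus strand) lie on the same chromosome. AGO4 (AT2G27040, chr2:11536502-11542391, minus strand), AGO5 (AT2G27880, chr2:11871378-11876989, plus strand) and AGO6 (AT2G32940, chr2:13971916-13977521, minus strand) lie on chromosome 2. AGO8 (AT5G21030, chr5:7139817-7144272, minus strand), AGO9 (AT5G21150, chr5:7192239-7198381, plus strand) and AGO10 (AT5G43810, chr5:17610744-17616907, plus strand) lie on chromosome 5. All 10 are annotated as protein-coding, and none overlaps another annotated gene. Every window of 100 bases within an exon of each member was unique in the genome. Reads of that length that lie within 1 exon without mismatches therefore have 1 exact origin. Reads across exon junctions were not checked.

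The parental libraries held between 36993250 and 72713735 counts, and the F1 libraries between 6047673 and 29376326 counts that the authors had assigned to an allele. PRMT5 RNA lay between 29.7 and 37.2 CPM (counts per 1000000 library counts, with TMM scaling) in the 12 parental libraries and did not separate the genotypes, although an annotated gene overlaps it on the other strand. The Ler allele of PRMT5 held 53.1% of 1046 allele counts in WT F1 and 0.189% of 1057 in prmt5-5 F1, where both copies derive from Col. Green tissue genes (LHCB1.1, LHCB2.1 and RBCS1A) summed to between 16553 and 22143 CPM in the parental libraries. Of the 3, 2 fell in prmt5-5 in both accessions, where 12.3% of all genes fell in Col and 16.9% in Ler. The 5 root genes summed to 68.8 to 72.5 CPM in Col WT against 60.8 to 64.5 CPM in Col prmt5-5, without overlap, and to 66.3 to 71.6 CPM in Ler WT against 61.6 to 67.4 CPM in Ler prmt5-5, with overlap. In F1 the green tissue sum was 16402 to 28500 CPM in WT against 6765 to 14187 CPM in prmt5-5. The part of these tissue markers in the Argonaute values was not tested. In bulk seedlings, fewer cells of a type and less RNA per cell cannot be told apart. F1 counts are only those assigned to an allele, so F1 levels are not comparable with parental levels: AGO1 had 0.03 times and AGO7 had 3.97 times its parental CPM there.

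All 10 members passed the filter on low counts in the parental libraries, and their levels spanned a wide range. Per kilobase of exon in Col WT, AGO1 had 51.4 ± 5.37 CPM per kb (mean ± SD, n = 3) and made up 56.6% of the family's summed level. AGO4 followed with 17.2 ± 1.01, AGO10 with 11.6 ± 0.532, AGO2 with 6.42 ± 0.734, AGO7 with 2.67 ± 0.194 and AGO6 with 0.948 ± 0.0946 CPM per kb. The libraries of these neighbours in the order did not overlap. AGO3 had 0.181 ± 0.0324, AGO9 0.0760 ± 0.0390, AGO5 0.0692 ± 0.0360 and AGO8 0.0475 ± 0.00674 CPM per kb, and the library ranges of the last 3 overlapped. The order of the first 6 was the same in Col prmt5-5, Ler WT and Ler prmt5-5 by group mean, with AGO3 and AGO6 overlapping in Ler prmt5-5. The summed level of the family was 90.7 ± 7.61 CPM per kb in Col WT, 101 ± 4.36 in Col prmt5-5, 92.5 ± 7.61 in Ler WT and 98.1 ± 10.4 in Ler prmt5-5. Their ranges of mean ± SD overlapped. By library, Col WT (82.1 to 96.6) and Col prmt5-5 (97.1 to 106) did not overlap, while Ler WT (86.3 to 101) and Ler prmt5-5 (86.1 to 104) did. The summed level was not tested.

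**Figure D1:**
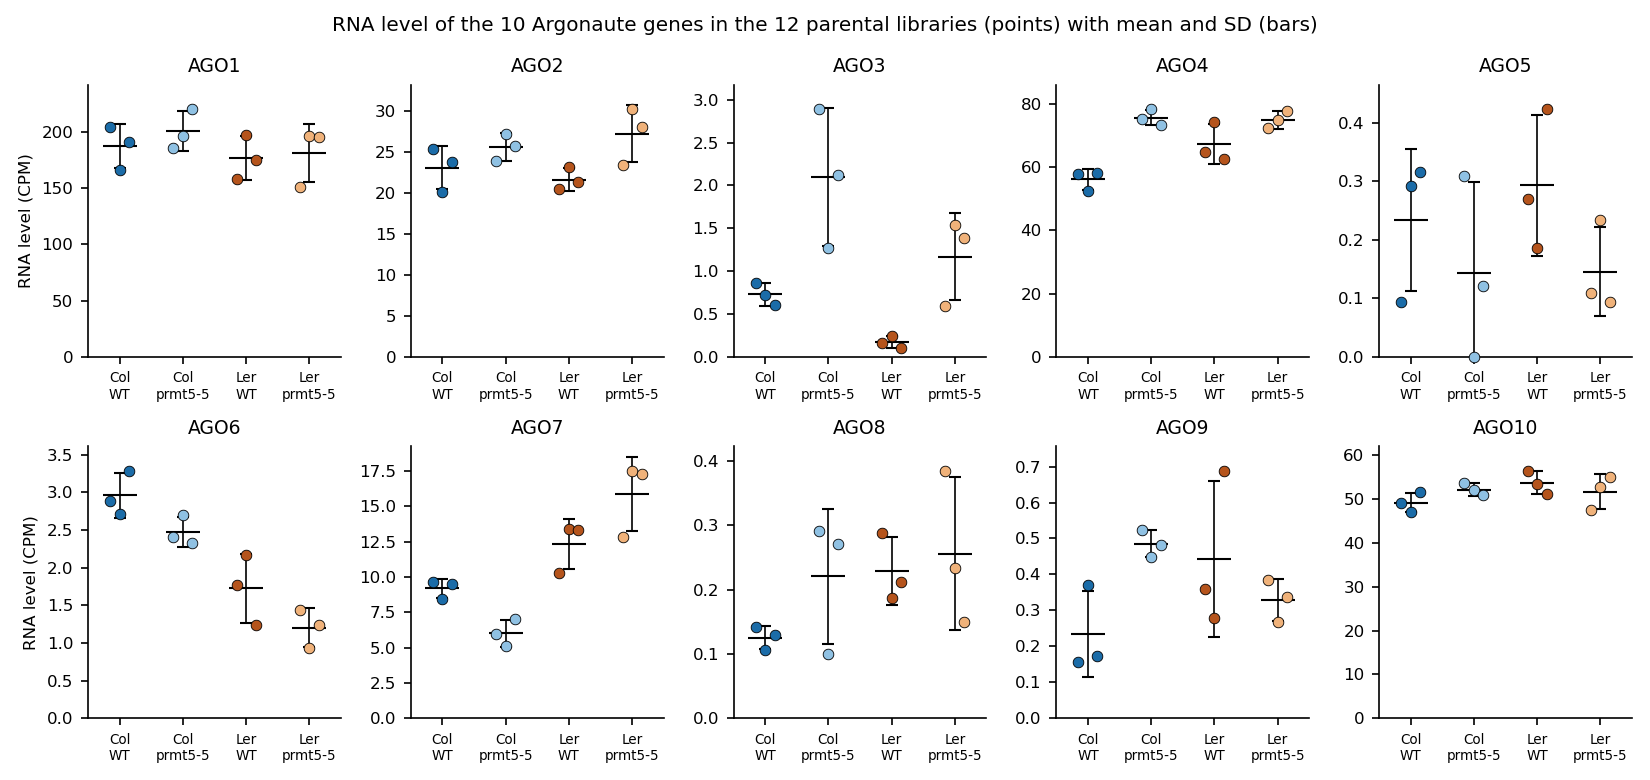
RNA level in CPM (y axis, from 0) of each Argonaute gene in the 4 parental groups (x axis), with 1 point per library and bars for the mean and SD of 3 libraries. AGO3 lay higher in prmt5-5 than in WT in both accessions, and AGO7 lay at 5.09 to 7.00 CPM in Col prmt5-5 and at 12.8 to 17.5 CPM in Ler prmt5-5.

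The first comparisons asked how the prmt5-5 allele changed the family in each accession. AGO3 rose in both, AGO4 rose and AGO7 fell in Col, and AGO2 rose in Ler. In Col, 3 of 10 members passed the test (edgeR quasi-likelihood, Benjamini-Hochberg adjusted p under 0.05 over 22924 genes), where 26.9% of all genes tested did, 14.6% higher and 12.3% lower. In Ler 2 of 10 passed, where 35.7% of all genes did, 18.9% higher and 16.9% lower. Over the fits that left out 1 library each, the number called ran from 3 to 4 in Col and from 1 to 4 in Ler. The median log2 change of the 10 members was 0.12 in Col and 0.09 in Ler, beside 0.01 in both for all genes tested. The 3 libraries of WT and prmt5-5 did not overlap for 5 of 10 members in Col and for 2 of 10 in Ler, where they did not for 46.5% and 44.3% of all genes tested.

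In the AGO2 branch, AGO3 had the largest log2 change of the 10 members in both accessions, from a low level. Its level in Col was 0.863, 0.717 and 0.603 CPM in the WT libraries and 2.89, 1.27 and 2.13 CPM in the mutant. The Ler libraries had 0.162, 0.243 and 0.106 CPM in WT against 0.591, 1.54 and 1.38 CPM in the mutant. Every prmt5-5 library lay above every WT library of its accession, and the counts behind these values ran from 4 to 149 per library. AGO3 rose by 1.53 on the log2 scale in Col (SE 0.37, adjusted p = 0.00768) and by 2.71 in Ler (SE 0.46, adjusted p = 0.000509). The 2 effects differed by 1.18 (Ler minus Col, 95% interval -0.10 to 2.46), which did not pass the interaction test (adjusted p = 0.325).

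AGO2, the neighbour of AGO3 with the closer miR403 site, moved less. It stood at 25.4, 20.2 and 23.8 CPM in Col WT and at 23.9, 27.3 and 25.8 CPM in Col prmt5-5, and the groups overlapped. In Ler it stood at 20.5, 23.2 and 21.3 CPM in WT against 23.4, 30.3 and 28.1 CPM in prmt5-5, without overlap between the lowest mutant and the highest WT library, which were 23.4 and 23.2 CPM. AGO2 rose by 0.33 in Ler (log2, SE 0.10, adjusted p = 0.0222). In Col its change was 0.15 (SE 0.10, 95% interval -0.08 to 0.37, adjusted p = 0.322). The test of the difference between the accessions gave 0.19 (95% interval -0.13 to 0.50, adjusted p = 0.557), so the effect was not shown to differ. The Ler call was lost when Ler WT replicate 1 (adjusted p = 0.0749) or 3 (0.0649), or Ler prmt5-5 replicate 2 (0.101) or 3 (0.0678), was left out.

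The level of AGO3 is given beside salicylic acid defence genes because the libraries differed widely in them. PR1, PR2 and PR5, pathogenesis-related genes that salicylic acid induces, summed to 9.20, 19.1 and 9.14 CPM in Col WT and to 20.9, 12.8 and 33.9 CPM in Col prmt5-5. The sum was 11.8, 41.7 and 37.6 CPM in Ler WT and 93.4, 915 and 632 CPM in Ler prmt5-5. PR1 lies at chr2:6241640-6242541. There, 17 genes in the 200 kb bin centred at 6.3 Mb had a median Ler share of 50.8% in WT F1 and 13% in prmt5-5 F1. The Ler mutant may carry Col chromosome there, left by the backcross, and its part in the defence sums was not tested. In Ler PR2 and PR5 rose, by 4.68 and 4.57 on the log2 scale, and PR1 was not called. In Col the adjusted p was 0.271 for PR2, 0.671 for PR5 and 1 for PR1. AGO3 in Ler prmt5-5 was lowest in replicate 1, where the defence sum was also lowest, while in Col the AGO3 change of 1.53 stood beside sums that overlapped between WT and prmt5-5. In 6 of 8 groups the library with the most AGO3 was also the one with the highest defence sum, and for AGO2 this held in 3 of 8 groups. With 3 libraries per group such matches also arise by chance. The share of all genes that match as often was not counted, so these counts show no link particular to AGO3. The part of these genes' response in the AGO3 values was not tested.

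**Figure D2:**
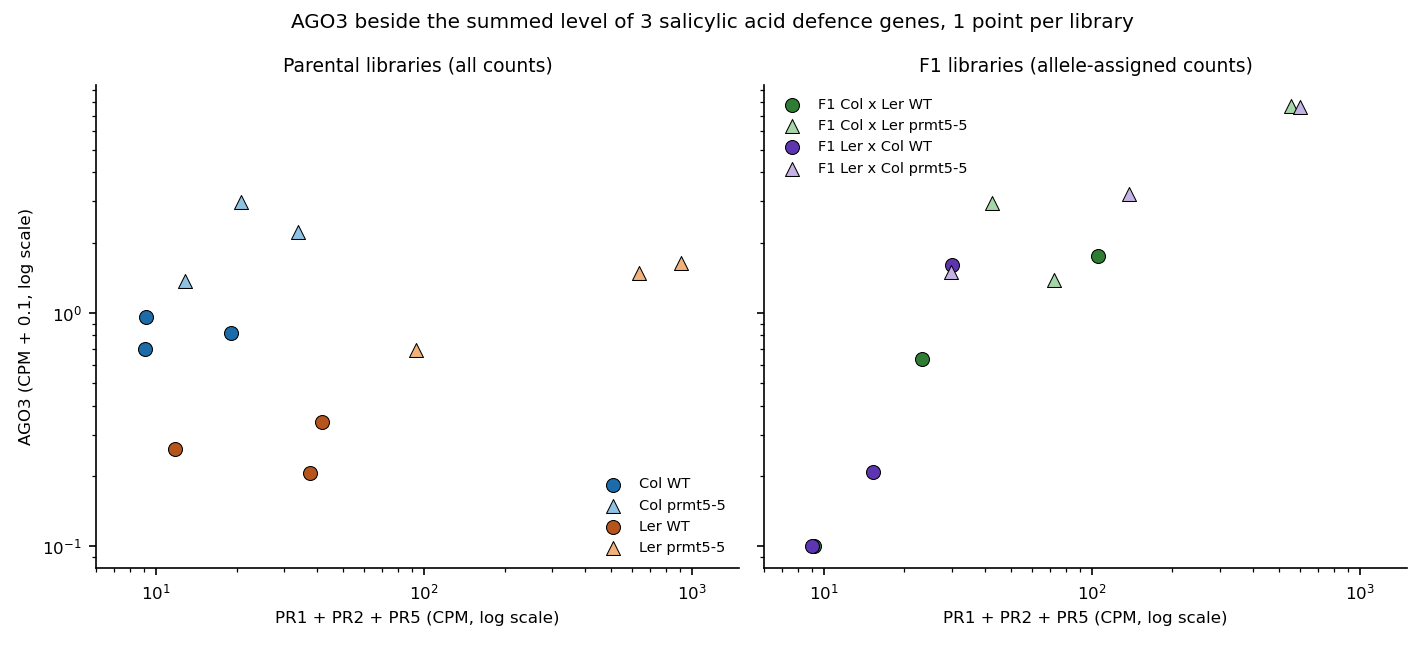
AGO3 level plus 0.1 (y axis, CPM, log scale) against the summed level of PR1, PR2 and PR5 (x axis, CPM, log scale), 1 point per library, with parental libraries on the left and F1 libraries on the right. The F1 libraries with the highest defence sums, 554 and 598 CPM, had AGO3 at 7.55 and 7.54 CPM, while the Col prmt5-5 libraries reached 2.89 CPM at sums of at most 33.9 CPM.

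AGO7, the carrier of miR390, was the member whose response differed between the accessions. The Col libraries had 9.67, 8.44 and 9.51 CPM in WT against 5.99, 5.09 and 7.00 CPM in the mutant, where all 3 lay lower. The Ler libraries had 10.3, 13.4 and 13.3 CPM in WT against 12.8, 17.5 and 17.3 CPM in the mutant, and these groups overlapped. AGO7 fell by 0.61 in Col (log2, SE 0.15, adjusted p = 0.00848). In Ler the change was 0.36 (SE 0.14, adjusted p = 0.0626), and it passed without Ler prmt5-5 replicate 1, the lowest mutant library (0.50, adjusted p = 0.00864). The Ler effect exceeded the Col effect by 0.97 for AGO7 in the interaction test (SE 0.21, 95% interval 0.53 to 1.42, adjusted p = 0.0207), 1 of 10 members called where 3.35% of all genes were. This call was lost without Col WT replicate 3 (adjusted p = 0.0582), Col prmt5-5 replicate 2 (0.0523), or Ler prmt5-5 replicate 2 (0.0552) or 3 (0.0568), and the difference stayed between 0.85 and 1.11 over the 12 fits that each left out 1 library.

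Of the DNA methylation branch, AGO4 was the only member called for the mutation. Its level in Col was 57.9, 52.3 and 58.1 CPM in WT libraries against 75.3, 78.3 and 73.4 CPM in mutant libraries. In Ler the WT libraries had 64.9, 74.4 and 62.5 CPM and the mutant libraries 72.3, 74.8 and 77.8 CPM. The Col groups stood clearly apart, and the Ler groups overlapped. AGO4 rose by 0.43 in Col (log2, SE 0.08, adjusted p = 0.000987), and in Ler its change was 0.16 (SE 0.08, adjusted p = 0.129), or 0.23 without Ler WT replicate 2 (adjusted p = 0.0340). The interaction was -0.28 (95% interval -0.51 to -0.04) with an adjusted p of 0.189.

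AGO6 had a negative estimate in every background without passing the test. Its Col libraries had 2.89, 2.71 and 3.29 CPM in WT against 2.4, 2.69 and 2.32 CPM in the mutant. Its Ler libraries had 1.77, 2.16 and 1.24 CPM in WT against 1.44, 0.935 and 1.23 CPM in the mutant. The Col groups did not overlap and the Ler groups did. The log2 change was -0.27 in Col (SE 0.21, adjusted p = 0.368) and -0.53 in Ler (SE 0.22, adjusted p = 0.0771). The Ler estimate passed without Ler WT replicate 3 (-0.70, adjusted p = 0.0264) or Ler prmt5-5 replicate 1 (-0.69, adjusted p = 0.0370).

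AGO9, which silences transposons in the ovule, and AGO8, its low-level neighbour 47966 bp away, were measured on few counts, 10 to 32 and 4 to 28 per parental library. AGO9 was 0.157, 0.372 and 0.172 CPM in Col WT and 0.523, 0.449 and 0.483 CPM in Col prmt5-5. All 3 mutant libraries lay higher, but the change of 1.14 (log2, SE 0.43) had an adjusted p of 0.0633. It passed without Col WT replicate 2 (1.52, adjusted p = 0.0275) and, through the shared spread, without Ler WT replicate 3 (adjusted p = 0.0483). In Ler the estimate for AGO9 was -0.38 (SE 0.41, adjusted p = 0.501). AGO8 and AGO5, another germline Argonaute, ranged from 0.0998 to 0.385 CPM and from 0 to 0.424 CPM over the 12 parental libraries, with WT and mutant groups that overlapped in each accession. The 7 floral and germline marker genes summed to 15.4 to 17.5 CPM in Ler WT, to 10.4 to 12.5 CPM in Ler prmt5-5 and to between 8.93 and 11.7 CPM in the Col libraries, and their part in the AGO9 values was not tested. Of them SPL, which starts the germ line, was at 0 in 8 of the 12. AP1 was at 0 in 1 of the 12, and AP3, PI, AG, SEP3 and DMC1 in none.

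AGO1 and AGO10 were not called in either accession, and their WT and mutant libraries overlapped. AGO1 ranged from 166 to 204 CPM in Col WT, from 186 to 220 CPM in Col prmt5-5, from 158 to 197 CPM in Ler WT and from 151 to 197 CPM in Ler prmt5-5. The 95% interval of its log2 change was -0.15 to 0.36 in Col and -0.22 to 0.29 in Ler. AGO10 lay between 47.1 and 56.5 CPM in all 12 libraries, and the interval of its change was -0.07 to 0.24 in Col and -0.21 to 0.10 in Ler. The 7 shoot meristem and boundary markers summed to 12.7 to 13.4 CPM in Col WT against 14.4 to 15.7 CPM in Col prmt5-5, without overlap, and to 11.9 to 18.4 CPM in Ler WT against 14.1 to 14.7 CPM in Ler prmt5-5. Their part in the AGO10 values was not tested. Of them CLV3, a stem cell gene, was at 0 in 11 of the 12, and WUS, which marks the organising centre, in 6. The other markers of this list, STM, KNAT1, CUC1, CUC2 and CUC3, were at 0 in none of the 12.

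The second set of comparisons set Ler against Col within a genotype, and it named AGO3, AGO4, AGO6 and AGO7. The only build in the processing notes is TAIR10, a Col genome. Whether Ler reads were lost in alignment to it was not tested, here or for the alleles below. In WT 4 of 10 members passed, where 29.8% of all genes did. AGO3 was lower in Ler, with a log2 difference of -2.04 (SE 0.47, adjusted p = 0.00455), as was AGO6, with -0.77 (SE 0.21, adjusted p = 0.0128). AGO4 was higher in Ler by 0.26 (SE 0.08, adjusted p = 0.0179) and AGO7 by 0.42 (SE 0.15, adjusted p = 0.0452). The libraries of Col WT and Ler WT did not overlap for these 4 members and AGO8, 5 of 10, where they did not for 43.5% of all genes tested. The AGO7 call was lost in 7 of the 12 fits that left out 1 library, namely each of the 3 Col WT libraries, Col prmt5-5 replicate 1, Ler WT replicates 2 and 3 and Ler prmt5-5 replicate 3, with adjusted p up to 0.144. The AGO4 call was lost without Col WT replicate 2 (adjusted p = 0.0748) or Ler WT replicate 2 (0.0951), and the AGO6 call without replicate 3 of Col WT (0.0586) or of Ler WT (0.0554).

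In prmt5-5 2 of 10 members differed between the accessions, where 28.1% of all genes did. AGO7 was higher in Ler by 1.39 (log2, SE 0.15, adjusted p = 6.95e-06). AGO6 had a log2 difference of -1.03 (SE 0.22, adjusted p = 0.00247). AGO3 had a difference of -0.86 (SE 0.36, adjusted p = 0.0890, or 0.0438 without Col prmt5-5 replicate 2) and AGO4 of -0.01 (95% interval -0.18 to 0.15). Both calls held in each of the 12 fits that left out 1 library.

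In the F1 hybrids 7 members passed the filter, and AGO5, AGO8 and AGO9 did not. None of the 7 was called for the prmt5-5 effect by edgeR in either cross, where 5.55% of all genes were called in the Col x Ler F1 and 13.3% in the Ler x Col F1. At an unadjusted p under 0.05 the counts were 0 and 3 of 7 (AGO2, AGO3 and AGO6), beside 3358 and 4730 of 17301 genes. The DESeq2 Wald test called 0 in both. The estimates with their intervals are therefore given as values.

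AGO3 in the Col x Ler cross was at 0, 0.534 and 1.65 CPM in WT libraries and at 1.28, 2.87 and 7.55 CPM in mutant libraries. In the Ler x Col cross the WT libraries were at 0, 0.108 and 1.5 CPM and the mutant libraries at 1.39, 7.54 and 3.12 CPM. The groups overlapped in both crosses, and the libraries within each group spread widely. A count of 0 in the WT replicates 1 allows up to 0.496 CPM in the first cross and up to 0.402 CPM in the second (3 counts of the library total, counting error only). The log2 change was 2.22 (95% interval -0.36 to 4.81) in the first cross and 2.77 (0.22 to 5.31, adjusted p = 0.147) in the second. The AGO3 estimate of the first cross was 1.30 without F1 Col x Ler prmt5-5 replicate 3 and 3.59 without F1 Col x Ler WT replicate 3. That of the second was 1.87 without F1 Ler x Col prmt5-5 replicate 2. Without F1 Ler x Col WT replicate 3, the WT library with the most AGO3 in that cross, the latter was 5.47 (adjusted p = 0.0401), a value that rests on a WT group of 2 libraries with at most 3 counts each.

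AGO2 in the Col x Ler cross was at 16, 20.7 and 18.9 CPM in WT libraries and at 22.3, 21.6 and 25.1 CPM in mutant libraries. In the Ler x Col cross the WT libraries were at 23.2, 16.8 and 23.1 CPM and the mutant libraries at 27, 25.4 and 29.3 CPM. All mutant libraries lay above the WT libraries of their cross, as in Ler. The genotypes did not overlap for 2 of 10 members in each cross. They did not for 26.5% of all genes tested in Col x Ler and for 29.9% in Ler x Col. The log2 change of AGO2 was 0.30 (SE 0.16, adjusted p = 0.332) and 0.38 (SE 0.16, adjusted p = 0.143).

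AGO6 in the Col x Ler cross was at 5.32, 4.7 and 4.61 CPM in WT libraries and at 4.21, 3.36 and 2.31 CPM in mutant libraries. In the Ler x Col cross the WT libraries were at 6.78, 4.77 and 4.04 CPM and the mutant libraries at 2.61, 3.45 and 3.75 CPM. All mutant libraries lay below the WT libraries of their cross, where the genotypes did not overlap for 26.5% and 29.9% of all genes tested. The log2 change of AGO6 was -0.56 (SE 0.29, adjusted p = 0.314) and -0.65 (SE 0.29, adjusted p = 0.160). AGO7 had log2 estimates of -0.13 (95% interval -0.49 to 0.23) and -0.31 (-0.67 to 0.05) in these crosses, and AGO4 of 0.15 (-0.16 to 0.46) and 0.24 (-0.07 to 0.54). No difference between the crosses was detected in a tested member. For the difference of the mutant effects, for the WT crosses and for the mutant crosses, 0 of 7 were called by edgeR or DESeq2. Of all genes 0%, 0% and 0.00578% were called. At an unadjusted p under 0.05 there were 0 of 7 in each, beside 756, 327 and 1666 of 17301 genes.

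**Figure D3:**
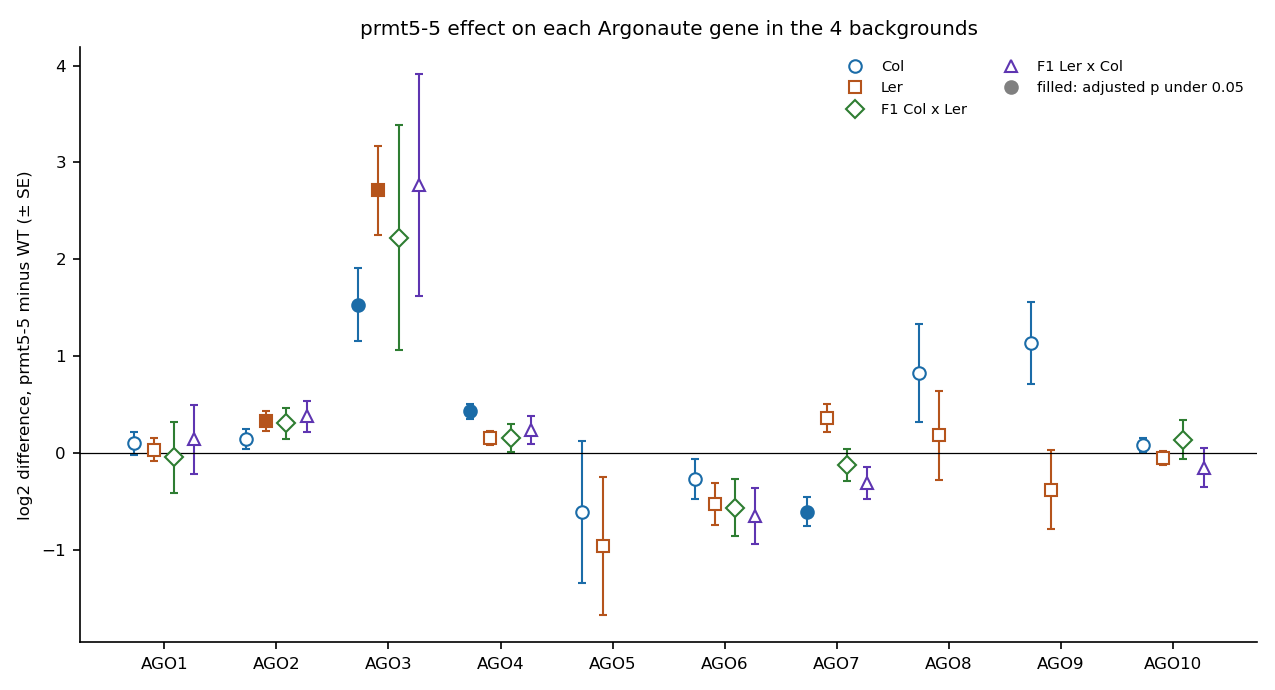
Log2 difference of prmt5-5 minus WT (y axis, bars are SE) for each Argonaute gene (x axis) in Col, Ler and both F1 crosses, with filled symbols for an adjusted p under 0.05. AGO3 had the highest estimates, from 1.53 to 2.77, and AGO7 stood at -0.61 in Col and at 0.36 in Ler.

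In F1 plants the Col and Ler alleles share the same cells, and their counts were compared within each library. AGO7 and AGO4 leaned to the Ler allele in WT. In WT F1 2 of 7 tested members had unequal alleles, where 30% of all genes did. AGO7 had Ler shares of 59.2%, 58.2% and 62.8% in the WT libraries of Col x Ler and of 62.4%, 65.2% and 60.2% in those of Ler x Col. All 6 lay above 50%, and the summed share was 62.0% of 3718 counts (95% exact binomial interval 60.4% to 63.6%, counting error only), a log2 difference of 0.67 (SE 0.08, adjusted p = 4.03e-09). AGO4 had a summed Ler share of 54.3% of 9519 counts in WT F1, a log2 difference of 0.27 (SE 0.05, adjusted p = 1.17e-05), with 6 of 6 libraries between 52.9% and 59.1%.

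In prmt5-5 F1 3 of 7 members had unequal alleles, where 33.2% of all genes did. AGO7 had a Ler share of 64.3% of 3114 counts, with libraries between 61.5% and 68.3% (log2 difference 0.85, SE 0.08, adjusted p = 1.12e-11). AGO6 had 35% of 246 counts, with libraries between 20% and 50% (log2 difference -0.88, SE 0.28, adjusted p = 0.0125). AGO3 had 33.2% of 346 counts, with libraries between 23.5% and 60% (log2 difference -0.93, SE 0.35, adjusted p = 0.0339). The AGO6 call was lost without replicate 1 of either mutant F1 group (adjusted p = 0.0573 and 0.0819). The AGO3 call was lost under the DESeq2 Wald test (adjusted p = 0.148) and without F1 Col x Ler prmt5-5 replicate 1 or 3 or F1 Ler x Col prmt5-5 replicate 1 or 2 (adjusted p from 0.0707 to 0.217).

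AGO4 was the member whose allele ratio changed with the mutation, 1 of 7 where 3.93% of all genes changed. Its Ler shares were 54.5%, 53.4%, 59.1%, 54.4%, 52.9% and 53.9% in the 6 WT F1 libraries. In the 6 prmt5-5 F1 libraries they were 49.9%, 50%, 51.8%, 50.5%, 52.5% and 48.3%. Every WT library lay above every mutant library, with 52.9% and 52.5% as the nearest. The summed share went from 54.3% to 50.8%, a change of the log2 ratio of -0.24 (SE 0.07, 95% interval -0.38 to -0.11, adjusted p = 0.0262). The call was lost under the DESeq2 Wald test (adjusted p = 0.133), with 1 normalisation factor per allele column (adjusted p = 0.0693), and in 6 of the 12 fits that left out 1 library. Those 6 left out F1 Col x Ler WT replicate 3 or prmt5-5 replicate 1 or 2, or F1 Ler x Col WT replicate 1 or 3 or prmt5-5 replicate 3, with adjusted p from 0.0569 to 0.15.

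The alleles of AGO1, AGO2 and AGO10 were not called in either genotype. AGO2 had Ler shares of 47.8% of 1587 counts in WT and 48.6% of 1896 in prmt5-5, and its log2 allele difference had 95% intervals of -0.35 to 0.14 and -0.30 to 0.17. AGO10 had 52.2% of 1699 and 55.0% of 1668, and the latter passed without F1 Ler x Col prmt5-5 replicate 3 (adjusted p = 0.0354). AGO1, with only 30 to 169 assigned counts per library, had 56.0% of 441 and 57.7% of 392, and the latter passed without F1 Col x Ler prmt5-5 replicate 2, with a log2 difference of 0.62. For the difference of the allele ratio between the crosses 0 of 7 members were called by edgeR or DESeq2, and 0% of all genes were called. At an unadjusted p under 0.05 there were 0 of 7, beside 665 of 16644 genes. Every AGO6 allele count above 0 was even, as were 75.8% of all allele counts from 1 to 99, so the number of independent fragments may be lower than the counts and counting intervals may be too narrow.

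**Figure D4:**
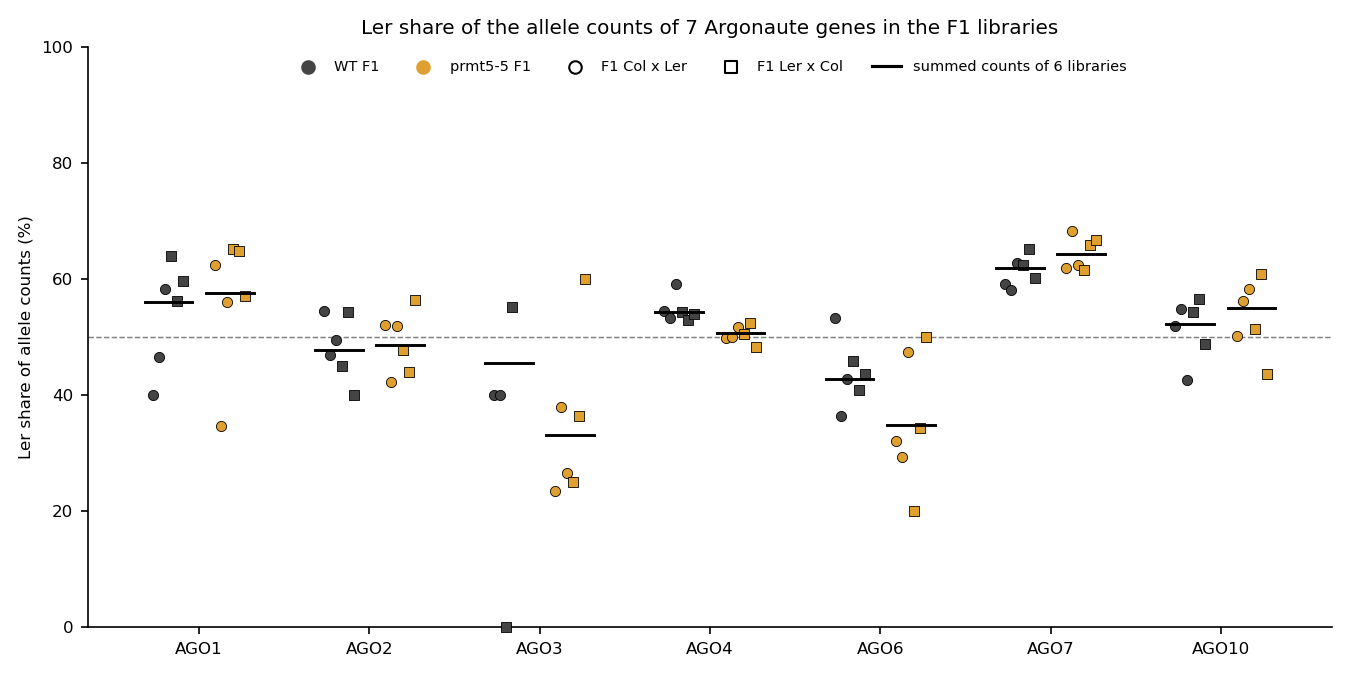
Ler share of the allele counts (y axis, percent) of the 7 tested Argonaute genes (x axis) in each F1 library, with circles for Col x Ler, squares for Ler x Col, and lines for the summed counts of 6 libraries. AGO7 lay above 58% in all 12 libraries, and AGO4 lay at 52.9% or more in WT and at 52.5% or less in prmt5-5. AGO3 libraries without an allele count are not drawn.

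The backcross can leave stretches of Col chromosome in the Ler mutant, where the Ler share would drop in mutant F1. Genes within 200 kb on each side of the members had median Ler shares of 49.3% to 50.5% in WT F1 and of 49.1% to 50.3% in prmt5-5 F1. Around AGO4, 62 genes had a median of 50.5% in WT and 50.1% in prmt5-5. Around AGO7, 78 genes had medians of 49.7% and 49.2%. None of these medians lay near 0.189%, the Ler share of PRMT5 in prmt5-5 F1, or near 13%, the median of the bin at PR1. They cover whole flanks, so shorter stretches and single genes were not tested. The summed share around AGO7 was 51.02% in WT F1 and 49.29% in prmt5-5 F1, with every mutant library below every WT library. Around AGO10 it was 48.96% and 49.997%, with every mutant library above every WT library. For the other members the libraries overlapped. The cause of these shifts was not tested.

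The parental and the allelic differences were then set side by side, a comparison of 2 separate lines with 2 alleles in common cells. A loss of Ler reads in alignment could lower both values of a gene, and its part was not tested. For AGO4 they were nearly equal in both genotypes, at 0.26 between parents and 0.27 between alleles in WT and at -0.01 and 0.03 in prmt5-5 (log2, Ler minus Col). The parental minus allelic difference of AGO4 had 95% intervals of -0.24 to 0.21 in WT and -0.19 to 0.17 in prmt5-5. For AGO7 the parental difference was 0.42 in WT and 1.39 in prmt5-5, whereas the allelic difference was 0.67 and 0.85. Its parental minus allelic difference was -0.27 in WT (SE 0.14, adjusted p = 0.281) and 0.56 in prmt5-5 (SE 0.18, 95% interval 0.18 to 0.94, adjusted p = 0.0597). The latter passed without Col prmt5-5 replicate 3 (adjusted p = 0.0332), Ler prmt5-5 replicate 1 (0.00531) or F1 Col x Ler prmt5-5 replicate 2 (0.0494). The change of the AGO7 allele ratio with the mutation was 0.18 (95% interval -0.05 to 0.41, adjusted p = 0.612), beside the parental interaction of 0.97. The difference between these 2 values was not tested.

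AGO6 was lower from Ler in all 4 values, at -0.77 and -1.03 between parents and at -0.38 and -0.88 between alleles, of which the WT allelic value did not pass the test (adjusted p = 0.297). AGO3 was at -2.04 and -0.86 between parents and at -0.38 (SE 0.56, from 57 allele counts in 6 libraries) and -0.93 between alleles. Its parental minus allelic difference in WT was -1.66 (95% interval -3.20 to -0.12, adjusted p = 0.182). These AGO3 values in WT rest on 1 library: without F1 Ler x Col WT replicate 3 the WT allelic difference was -1.92 (adjusted p = 0.176) and the parental minus allelic difference was 0.42 (adjusted p = 0.857), whereas the latter lay between -1.99 and -1.44 in the other 11 fits that left out a library. Without F1 Ler x Col WT replicate 2 the WT allelic difference was -0.14. Of the 7 members 0 were called by edgeR for this difference in WT, where 11.2% of all genes were, and 0 in prmt5-5, where 10.3% were. At an unadjusted p under 0.05 there was 1 in WT (AGO3) and 2 in prmt5-5 (AGO1 and AGO7), beside 4762 of 21171 genes in WT and 4689 of 21031 in prmt5-5. With DESeq2 size factors in the edgeR fit 0 were called in either, and DESeq2's own test was not run for it. Simulated data had these library sizes and 1 fixed spread for all genes, and only genes above a floor of allele counts were changed. A true log2 difference of 1 was called for 49.5% of changed genes in WT and for 47% in prmt5-5, so differences of that size can be missed. These shares do not give the power for a single member such as AGO3.

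**Figure D5:**
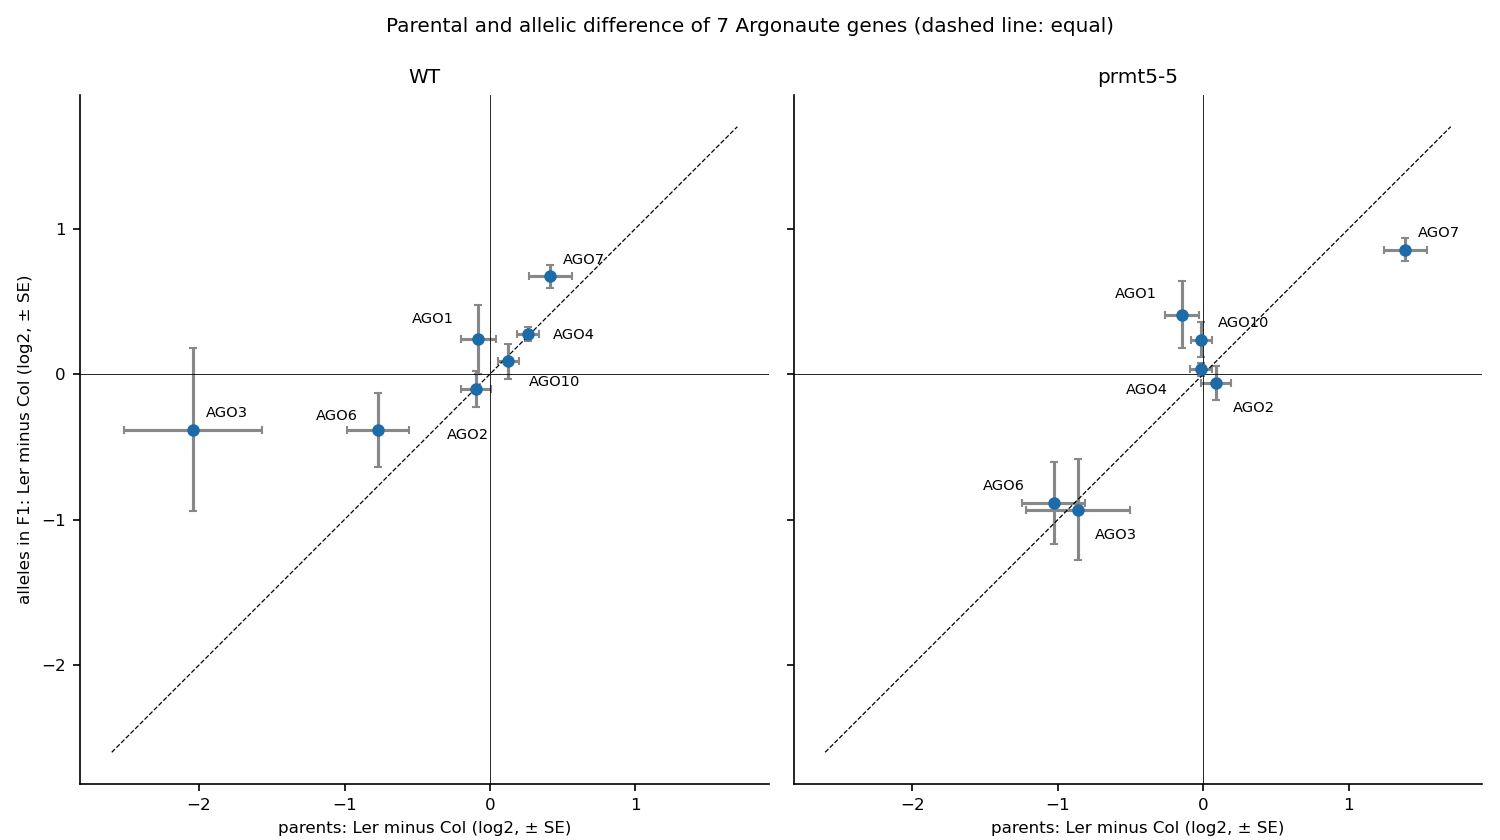
Log2 difference of Ler minus Col between the alleles in F1 (y axis) against that between the parents (x axis) for 7 Argonaute genes, with WT on the left and prmt5-5 on the right, bars for SE and a dashed line where both are equal. AGO4 lay near the line in both panels, and AGO7 moved from 0.42 to 1.39 along the parental axis and from 0.67 to 0.85 along the allelic axis.

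Genes that make or use the small RNAs of Argonautes were described from lists of the pathway. Among 16 genes of Dicer, double-stranded RNA binding and microRNA biogenesis, 4 rose and 0 fell in Col, where 14.6% of all genes rose and 12.3% fell, and 6 rose and 1 fell in Ler, where 18.9% rose and 16.9% fell. HST, which exports microRNA complexes, rose by 0.67 in Col (log2, SE 0.09) and by 0.53 in Ler. SE, a partner of the Dicer that makes microRNAs, rose by 0.42 and 0.37, and DCL4, the Dicer that makes trans-acting siRNAs, by 0.62 and 0.59. DCL1, which cuts microRNA precursors, was the 1 that fell in Ler, by 0.21 on the log2 scale, and it is named after its value was seen. Annotated genes on the other strand overlap DCL1, and the sources used here do not give the strand setting of the counts. The list medians were 0.07 in Col and 0.08 in Ler, near the 0.01 of all genes.

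Among 14 genes of RNA-directed DNA methylation, in which AGO4 and AGO6 act, 5 rose and 0 fell in Col, and 3 rose and 1 fell in Ler, beside the same shares of all genes. CLSY3, which helps recruit RNA polymerase IV, rose by 2.46 in Col (SE 0.24, adjusted p = 9.68e-06) and by 0.68 in Ler. Its Col libraries stood at 0.722, 0.425 and 0.861 CPM in WT against 3.64, 4.94 and 2.88 CPM in the mutant, without overlap. NRPE1, the largest subunit of RNA polymerase V, which AGO4 binds, rose by 0.61 in Col and by 0.19 in Ler, and KTF1, another AGO4-binding factor, by 0.41 and 0.23. The interaction was called for CLSY3 (-1.78, SE 0.33, adjusted p = 0.0113) and NRPE1 (-0.42, SE 0.10, adjusted p = 0.0374). CLSY4 was the gene that fell in Ler, by 0.74 on the log2 scale, from low levels of 0.896 to 1.26 CPM in WT. The list medians were 0.32 in Col and 0.09 in Ler, beside 0.01 for all genes in both.

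Around AGO7, the RNA-dependent RNA polymerase and tasiRNA list of 5 genes had 1 rise and 1 fall in each accession, where 26.9% of all genes were called in Col and 35.7% in Ler. RDR6, which copies TAS RNAs into double strands, fell by 0.30 in Col and by 0.21 in Ler on the log2 scale, and its partner SGS3 rose by 0.36 in Col and SDE5, which an annotated gene overlaps on the other strand, by 0.34 in Ler. Of 3 auxin response factor genes targeted by TAS3 siRNAs, 2 rose in Col and 1 in Ler, and 0 fell. Of all genes 14.6% rose in Col and 18.9% in Ler. ARF4 rose by 0.21 in Col and by 0.28 in Ler, and ARF3 rose by 0.21 in Col, while ARF2 was called in neither. The median log2 change of the 3 genes was 0.21 in Col and -0.02 in Ler. The TAS3 precursor itself had a log2 estimate of -0.28 in Col (SE 0.19, adjusted p = 0.288) and of 0.30 in Ler (SE 0.19, adjusted p = 0.248).

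Of 10 precursor genes of microRNAs and TAS RNAs linked to Argonautes, 6 passed the filter. By edgeR 0 of these were called in Col or Ler, where 26.9% and 35.7% of all genes were. At an unadjusted p under 0.05 there were 2 in Col (TAS1B and TAS1C) and 1 in Ler (TAS1B), beside 8877 and 10351 of 22924 genes. The DESeq2 Wald test called 1 in Col and 0 in Ler. MIR168A, whose microRNA targets AGO1, stood between 0.155 and 0.503 CPM with log2 estimates of -0.20 in Col and -0.39 in Ler (SE 0.45 and 0.44). MIR403 stood between 0 and 0.149 CPM, MIR390A and MIR390B at 0.0603 CPM or less, and MIR168B at 0 in every parental library. None of these 4 was tested, and polyadenylated RNA does not measure mature microRNAs. The log2 estimate of TAS1B was -0.37 in Col (adjusted p = 0.0566) and 0.31 in Ler (adjusted p = 0.0937). Those of TAS1C were -0.34 and 0.26, those of TAS2 -0.04 and 0.25, and those of TAS1A 0.12 and 0.09. Annotated genes overlap TAS1B and TAS1C on the other strand.

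FBW2, an F-box protein that promotes the breakdown of AGO1 protein, rose in all 4 backgrounds. Its Col libraries had 58.4, 62.2 and 60.5 CPM in WT against 114, 110 and 99.8 CPM in the mutant. Its Ler libraries had 56.9, 51.7 and 53 CPM in WT against 111, 87.9 and 90.8 CPM in the mutant. The mutant libraries lay far above the WT libraries, with log2 changes of 0.84 in Col, 0.85 in Ler, 0.82 in Col x Ler F1 and 0.92 in Ler x Col F1 (SE from 0.09 to 0.11). It was the 1 of 4 cofactor and turnover genes called in each of these comparisons. Of all genes 26.9% were called in Col, 35.7% in Ler, 5.55% in Col x Ler F1 and 13.3% in Ler x Col F1. SQN, a cyclophilin, and TSN1 and TSN2, which are Tudor nucleases, had log2 changes between -0.18 and 0.18 in Col and Ler.

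Genes with a pattern like that of AGO2, the known substrate, were sought by Pearson correlation of log2(CPM + 0.5) over the 12 parental libraries among 22923 other genes. The highest were LBA1 (AT5G47010), an RNA helicase of nonsense-mediated decay, at 0.970, AT1G29880, a glycyl-tRNA synthetase gene, at 0.963, and HA1 (AT2G18960), a plasma membrane proton ATPase, at 0.963. Within the family the coefficient with AGO2 was 0.655 for AGO1, 0.641 for AGO3 and 0.622 for AGO4, and the lowest was -0.580 for AGO5. These values describe 12 libraries that share groups, normalisation and library effects.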

How the data were processed

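Whole seedlings were profiled by RNA sequencing of polyadenylated RNA with 100 bp reads. The authors deposited whole-number counts per gene, which are unnormalised: 1 value per parental library, and a Col and a Ler allele value per F1 library. Per the submitters' processing notes, the tools were Trim Galore, FastQC and STAR 2.7.9a with the TAIR10 build. The sources used here do not give the counter, its strand setting or the rule that assigns reads to alleles. Parental libraries held 36993250 to 72713735 counts and F1 libraries 6047673 to 29376326, and an uneven share of even counts (64.5% of parental and 75.8% of allele counts from 1 to 99) means that counting intervals may be too narrow. They cover counting error only.

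Groups followed the labels. Genes were kept by filterByExpr with a minimum count of 10, and 3 genes without a value in the Ler columns were left out. Quasi-likelihood tests, all two-sided, were run in edgeR 4.0.16 (limma 3.58.1, R 4.3.3) with TMM scaling and robust dispersion, fitted on 22924 parental genes, 17301 genes in F1 totals, 16644 genes for alleles (allele within library), and 21171 (WT) and 21031 (prmt5-5) genes for the parental minus allelic difference. p-values were adjusted by Benjamini-Hochberg over all genes of a comparison and called under 0.05. A design with each library left out in turn, DESeq2 1.42.0 (its size factors and its Wald test), no filter on low counts, a replicate block and, for alleles, 1 factor per column were the alternatives. The models were tested on simulated counts with 1 fixed spread for all genes. The share of changed genes that had to be recovered was lowered after the first run, because of the parental minus allelic comparison. Sequence, site and position work used Python 3.11.15 with pandas 2.3.3 and numpy 2.4.6 on RefSeq TAIR10.1.

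The members and gene lists were chosen with earlier results of these data known. Every Argonaute gene is named, and of each pathway list up to 3 members with the smallest p among those called in Col and in Ler, with all precursors of microRNAs and TAS RNAs. DCL1 was named after its value was seen.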

Additional observations from a re-analysis of the deposited data

Results flagged for a closer look

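AGO7 was picked out because the prmt5-5 effect differed between the accessions in a direct test. The interaction of 0.97 on the log2 scale (Ler effect minus Col effect, edgeR adjusted p = 0.0207) came from lower levels in 3 of 3 mutant libraries in Col and a Ler estimate of 0.36 whose groups overlapped. It was called in 8 of the 12 fits that left out 1 library.

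AGO4 was picked out because its allele ratio differed between the F1 genotypes. The log2 ratio of Ler to Col changed by -0.24 (edgeR adjusted p = 0.0262), with the Ler share of all 6 mutant libraries below that of all 6 WT libraries. It was called in 6 of the 12 fits that left out 1 library, and not by the DESeq2 Wald test (adjusted p = 0.133).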

How the results depend on the processing

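Of 2004 refits of single members under the alternatives, 1953 kept their side of the threshold, 34 lost a call and 17 gained one. Most of the 127 results behind these refits were not called, and such results can lose no call. The total therefore does not measure how stable the calls are. The sign changed in 107 of the 2004 refits, 104 with 1 library left out, and 0 of these were called as reported or in the refit. DESeq2 size factors and the absence of a filter on low counts changed no count of called members by more than 1.5 times. The change of the allele ratio fell to 0 called members under the DESeq2 Wald test and to 0 with 1 factor per allele column. Samples were not taken as paired by replicate number, and 10 of 36 same-numbered pairs correlated over 0.1 (r from -0.374 to 0.590). Replicates 1 of Ler WT and Ler prmt5-5 had an r of 0.474. A pair with unlike numbers, in the prmt5-5 F1 groups, reached 0.537. The tally cannot tell whether some groups were paired, because pairs with unlike numbers were not counted in it. With the replicate block the F1 Ler x Col effect had 1 called member in place of 0 (AGO3, 3.48 on the log2 scale, adjusted p = 0.0178), and AGO7 in Ler, at 0.36, had an adjusted p of 0.0463. Over the fits that left out 1 library each, the number of called members ranged from 3 to 4 for the Col effect, 1 to 4 for the Ler effect, 0 to 1 for the interaction, 2 to 4 for Ler against Col in WT and 2 to 3 in prmt5-5. It was 0 to 1 for the F1 Ler x Col effect, 1 to 4 for alleles in prmt5-5 F1, 0 to 1 for the change of the allele ratio and 0 to 2 for the parental minus allelic difference in prmt5-5. The calls of AGO3, AGO4 and AGO7 in Col and of AGO3 in Ler held in all 12 such fits. The cause of these changes was not tested. Levels without TMM moved by less than 1 SD in 80 of 80 cases, and of the Ler shares around members, 15 of 20 moved by less than the spread of libraries with a 100 kb flank. Low counts limit AGO3, AGO5, AGO8 and AGO9, and few allele-assigned reads limit AGO1 in F1.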
